A study of Mus musculus with 3 samples.

Results

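The 10 genes Pdgfra, Pdgfrb, Dlk1, Ly6a, Ly6c1, Cd34, Dpp4, Pi16, Cd9 and Cd24a encode proteins used to recognize or sort progenitors of adipocytes. They were found by their names in the annotation of the arrays, which gave 19 of 56605 probes and 10 of 37324 genes. Total RNA of stromal vascular cells (SVC), small proliferative adipocytes (SPA) and mature white adipocytes (MWA) was measured, with 1 array for each fraction. All came from epididymal fat of 20-week-old male C57/BL mice, digested with collagenase. The lower phase of a spin at 9 g for 1 s was SVC. The floating cells of that spin were spun again at 226 g for 3 min, which left MWA on top and SPA as the sediment. SVC and SPA were grown in DMEM until they covered 90% of the dish, whereas no culture is described for MWA. The number of mice behind each array is not given in the sources used here.

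Adipose tissue grows in part by forming new adipocytes from progenitors that lie in the stroma and along the vessels. Such cells carry the receptors for platelet-derived growth factor (PDGF), stem cell antigens and sialomucins on their surface, and no single one of these proteins is restricted to them. Dpp4 and Pi16 are known from a multipotent progenitor of the interstitium, Dlk1 from preadipocytes that have not begun to store lipid, and Cd9 from a progenitor with a fibrogenic character. Endothelial cells also carry CD34 and Ly6 proteins, mural cells PDGF receptor beta, and mesothelial and immune cells several of the others.

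The level of a probe is its processed signal on the log2 scale relative to the 75th percentile of the same array, so that 0 is that percentile. With 1 array a fraction there is no replicate check, no test was run, and a difference below may include the spread between mice or cultures. The value after ± is the error that the image analysis software gave to the signals of the 2 arrays, carried to their log2 ratio, and it covers the measurement of the spots only. The 3 comparisons share their arrays and are not independent of each other. Date and fraction cannot be told apart for MWA, since the titles give SVC and SPA the same date and MWA another. Culture and cell type cannot be told apart between MWA and the other fractions. In these bulk samples, fewer cells of a type and less RNA per cell cannot be told apart either. Of the 19 probes, 17 were well above background on all 3 arrays, and each of the 10 genes had at least 1 such probe.

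The fractions were checked against 5 adipocyte genes, Adipoq, Plin1, Cidec, Lipe and Cfd. All 5 were higher in SPA than SVC and higher again in MWA, and their levels, as multiples of the 75th percentile, summed to 0.58 in SVC and 29.6 in SPA, and 1944 in MWA. Adipoq and Plin1 were not well above background in SVC. The 5 fibroblast genes Col1a1, Col1a2, Col3a1, Dcn and Lum were well above background on every array, their levels summed to 513 in SVC and 234 in SPA, and 544 in MWA, and Lum, Dcn and Col3a1 were highest in MWA.

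Several results rest on which probe was read, and stretches of 30 bases of such probes are given 5′ to 3′ as on the array. The bright Ly6c1 probe and the probe of its neighbour Ly6c2 are shown over bases 31 to 60, with the bases that differ in capitals.

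Ly6c1 bright probe: tctggggtcctgcagggttcccatgtAtgC
Ly6c2 probe: tctggggtcctgcagggttcccatgtGtgT

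They are the same at 57 of 60 bases, with a longest shared run of 48, and differ by G8C, A57G and C60T, where the base of the Ly6c1 probe is given first, positions are counted from 1 at the 5′ end and the base of the Ly6c2 probe is last. Signals of these 2 genes therefore cannot be told apart at this probe. The second Ly6c1 probe, shown over bases 1 to 30, has another sequence and gave other values, and no more than 25 bases of the bright probe matched any of 13 other probes of the Ly6 family at any offset.

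Ly6c1 dim probe: agcagttacctgccgcgcctctgatggatt

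The bright Cd34 probe and the Pi16 probe, which had the largest ratios of MWA over SPA of the 10 genes read at their brightest probe, are shown over bases 31 to 60.

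Cd34 bright probe: tctgAATAAAcgtgatgagtgaaaatgatg
Pi16 probe: ccttgactcctgAATAAAgcctgtctgaga

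The capitals mark AATAAA, the letters of the common polyadenylation signal, which was searched on the given strand only. It was found in 2 of the 19 member probes and in 9.77% of all 56605 probes. Dlk1 was read by a pair of probes in the same transcript that differed in size of effect, shown over bases 1 to 30 with no base marked.

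Dlk1 bright probe: tacacatattgtcttgtgttgctggtgcca
Dlk1 dim probe: tgcgctacaaccacatgcttcgcaagaaga

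**Figure D1:**
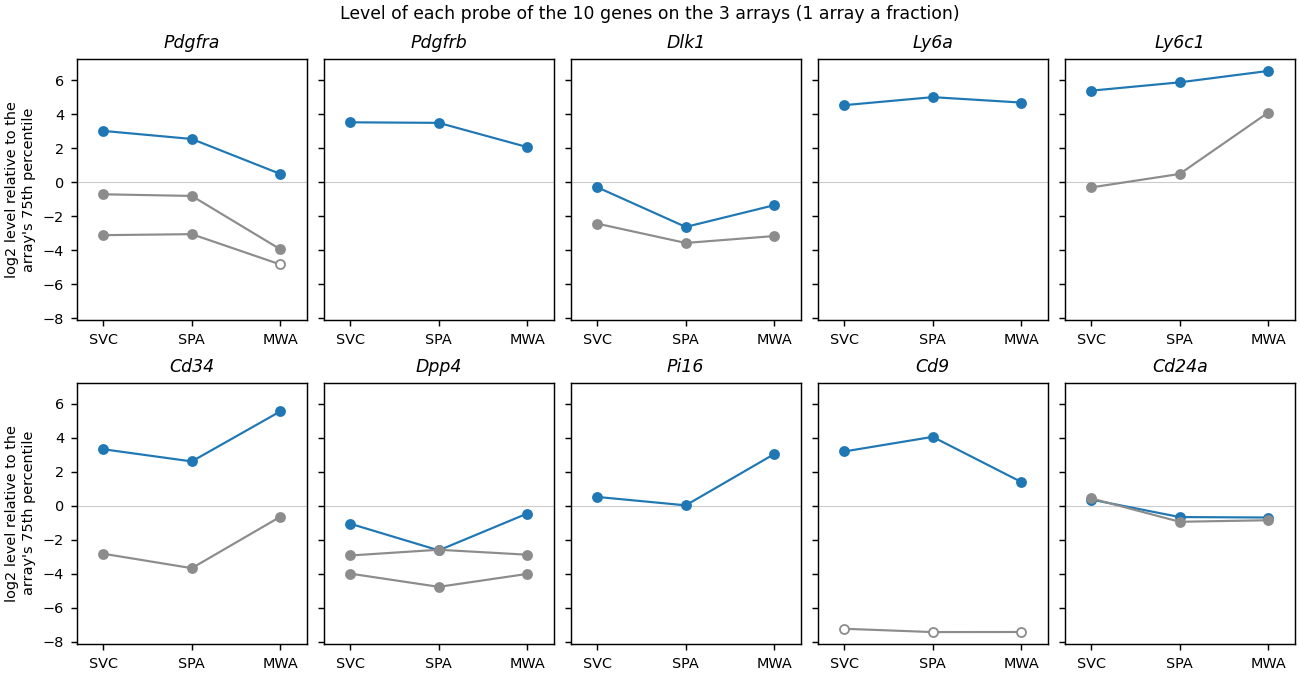
Log2 level of each probe of the 10 genes relative to the 75th percentile of its array (y axis) in SVC, SPA and MWA (x axis). Blue is the brightest probe of a gene and grey its other probes, filled circles are well above background and open circles are not, and each point is 1 array. Pdgfra, Pdgfrb and Cd9 were lowest in MWA, and Cd34 and Pi16 highest in MWA. Dlk1, Cd34, Pi16 and the bright and dimmest Dpp4 probes were lowest in SPA.

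Pdgfra and Pdgfrb encode the PDGF receptors alpha and beta, tyrosine kinases at the cell surface that drive growth and migration of mesenchymal cells. Both differed by less than 2-fold between SVC and SPA and were lower in MWA. At the bright Pdgfra probe (chr5:75593888-75593947 of mm9, plus strand, from base 6211 of NM_011058) the level was 3.01 in SVC and 2.54 in SPA, and 0.49 in MWA. MWA was therefore 4.14-fold below SPA (log2 ratio -2.05 ± 0.20) and 5.76-fold below SVC (-2.53 ± 0.20), while SPA and SVC differed 1.39-fold (-0.47 ± 0.20). The local background of the SVC spot was marked as outlying, but the processed signal had a fitted background surface subtracted instead. Without the SVC spot, Pdgfra was read at the second probe below, where the log2 ratio of MWA over SVC was -3.23.

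The other Pdgfra probes lie at other places of the locus, and MWA was lowest at each. At chr5:75579392-75579451 SVC had a level of -0.71, SPA of -0.81 and MWA of -3.94, which put MWA 8.76-fold below SPA (-3.13 ± 0.26) and 9.37-fold below SVC. At chr5:75571099-75571158 the level was -3.12 in SVC and -3.06 in SPA, while in MWA the signal was not well above background. That put MWA at least 3.43-fold below SPA and at least 3.29-fold below SVC. SVC and SPA differed by no more than the error at both places, with log2 ratios of -0.10 and 0.06. Pdgfrb had 1 probe, with a level of 3.52 in SVC and 3.49 in SPA, and 2.06 in MWA. SVC and SPA lay within the error of each other (-0.03 ± 0.20), and MWA was 2.68-fold below SPA (-1.42 ± 0.20) and 2.74-fold below SVC.

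The ligands of these receptors were read from the 4 PDGF genes, of which none differed by at least 2-fold between SPA and SVC. Pdgfa, which acts on the alpha receptor, stood at 3.46 in SVC and 3.54 in SPA, and 2.51 in MWA, and was 2.04-fold lower in MWA than SPA. Pdgfd, which acts on the beta receptor, went the other way, with levels of -2.95, -3.76 and -1.84, and was 3.76-fold higher in MWA than SPA. Pdgfb and Pdgfc differed by less than 2-fold in each comparison. Mural cells also express Pdgfrb, and their list of 7 genes was mixed, with a summed level of 727 in SVC and 330 in SPA, and 59.3 in MWA. Most of that sum on each array came from Acta2 and Tagln. Acta2, Tagln and Cnn1, contractile genes of smooth muscle and of activated fibroblasts, were 6.48-fold, 8.58-fold and 2.34-fold lower in MWA than SPA, whereas the pericyte genes Rgs5 and Cspg4 were 40.2-fold and 6.60-fold higher. Myh11, also a contractile gene of smooth muscle, was 2.09-fold higher in MWA, and Des was 1.55-fold higher. The part of mural cells in the Pdgfrb values was not tested.

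Dlk1 encodes a transmembrane protein of the Delta-like group that is shed from preadipocytes and holds back adipogenesis. Of the 10 genes it alone lay at least 5-fold below SVC in SPA, where 0.351% of the 22808 genes read in this comparison did. At the bright probe (chr12:110698721-110698781, from base 1513 of NM_010052) the level was -0.30 in SVC and -2.63 in SPA, and -1.36 in MWA. SPA was 5.03-fold below SVC (-2.33 ± 0.21), MWA was 2.42-fold above SPA (1.28 ± 0.21) and MWA was 2.08-fold below SVC (-1.06 ± 0.21). The dim probe (chr12:110698428-110698487, from base 1220) gave the same order with smaller differences, at levels of -2.44, -3.57 and -3.17. SPA was there 2.20-fold below SVC (-1.13 ± 0.25) and MWA 1.33-fold above SPA (0.41 ± 0.26). Both probes were dim in SPA, where the raw signal was 3.14 and 2.20 times the local background, and with normexp background correction the log2 ratio of SPA over SVC at the bright probe was -1.59.

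DLK1 is thought to act through NOTCH receptors, and is cut by the protease ADAM17. Of the 6 genes listed as its partners, Notch3 was 2.22-fold higher in SPA than SVC, and the others differed by less than 2-fold. Notch4, a receptor of endothelial cells, had levels of -0.22, 0.10 and 3.80 and was 13.0-fold higher in MWA than SPA. Notch3, a receptor of mural cells, had levels of 1.23, 2.38 and 3.60 and was 2.33-fold higher in MWA than SPA. Adam17, Dlk2, Notch1 and Notch2 differed by less than 2-fold in every comparison.

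Cd24a encodes a small anchored sialoglycoprotein that marks an early adipose progenitor. It was lower in SPA and in MWA than SVC, and SPA and MWA lay within the error of each other. At one probe (chr10:43303932-43303991) SVC had a level of 0.36, SPA of -0.67 and MWA of -0.69, so that SPA was 2.04-fold below SVC (-1.03 ± 0.21) and MWA 2.08-fold below SVC. At the other (chr10:43303706-43303765) the level was 0.43, -0.94 and -0.85, with SPA 2.59-fold and MWA 2.44-fold below SVC. The log2 ratio of MWA over SPA was -0.03 ± 0.21 at the first and 0.09 ± 0.21 at the second.

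Ly6a encodes SCA-1, an anchored stem cell antigen used to sort adipose progenitors, which endothelial cells carry too. Its level (chr15:74825553-74825612, minus strand) was 4.53 in SVC and 5.0 in SPA, and 4.68 in MWA. No 2 fractions differed by as much as 2-fold: SPA was 1.39-fold above SVC (0.47 ± 0.20), MWA 1.25-fold below SPA (-0.32 ± 0.20) and MWA within the error of SVC (0.15 ± 0.20). With quantile normalization the ratio of MWA over SPA turned its sign, to 0.03.

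Ly6c1 encodes an anchored protein of monocytes, endothelial cells and a fibro-inflammatory progenitor. Its bright probe (chr15:74875495-74875554), which could also bind Ly6c2 transcripts, had levels of 5.38 in SVC and 5.87 in SPA, and 6.54 in MWA. SPA was 1.40-fold above SVC (0.49 ± 0.20) and MWA 1.59-fold above SPA (0.67 ± 0.20) and 2.23-fold above SVC. The Ly6c2 probe had levels of 5.32, 5.88 and 6.58, with MWA 1.62-fold above SPA. With quantile normalization the bright Ly6c1 probe gave a log2 ratio of 1.38 for MWA over SPA and 1.84 for MWA over SVC.

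The second Ly6c1 probe (chr15:74877785-74877844, from base 277 of NM_001252058) had levels of -0.31 in SVC and 0.48 in SPA, and 4.09 in MWA. MWA was there 12.2-fold above SPA (3.60 ± 0.20) and 21.1-fold above SVC (4.40 ± 0.20), and SPA 1.73-fold above SVC (0.79 ± 0.20). Both probes thus gave the order SVC, SPA, MWA, and they differed in the size of the last step. Of the 8 other genes of the family, none differed by at least 2-fold between SPA and SVC, and Ly6h, Ly6d and Ly6e were higher in MWA than SPA, by 10.2-fold, at least 5.31-fold and 2.53-fold. Ly6d was not well above background in SVC or SPA, and Ly6h not in SVC.

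Cd34 encodes a sialomucin of stromal progenitors, hematopoietic stem cells and endothelium. It was lowest in SPA and highest in MWA at both of its probes. The level at the bright probe (chr1:196787392-196787451, from base 2370 of NM_133654) was 3.32 in SVC and 2.61 in SPA, and 5.54 in MWA. MWA was 7.66-fold above SPA (2.94 ± 0.20) and 4.67-fold above SVC (2.22 ± 0.20), and SPA was 1.64-fold below SVC (-0.71 ± 0.20). The local background of this probe was marked as outlying on all 3 arrays. The other probe (chr1:196785280-196785339, from base 963), with no such mark, had levels of -2.82, -3.67 and -0.65, and MWA was 8.10-fold above SPA (3.02 ± 0.23) and 4.50-fold above SVC. Podxl, a related sialomucin, was not well above background in SVC or SPA and at least 7.54-fold higher in MWA than SPA, while Podxl2 differed by less than 2-fold in every comparison.

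Pi16 encodes a membrane-anchored peptidase inhibitor. Its single probe (chr17:29465784-29465843, from base 2181 of NM_023734) had a level of 0.52 in SVC and 0.02 in SPA, and 3.03 in MWA. MWA was 8.06-fold above SPA (3.01 ± 0.20) and 5.72-fold above SVC (2.52 ± 0.20), and SPA was 1.41-fold below SVC (-0.49 ± 0.20). Because the local background was marked as outlying in SVC and SPA, the gene had no value once such spots were left out. That local background did not enter the processed signals above, from which a fitted surface was subtracted. Of its relatives with a CAP domain, Crispld2 was 5.99-fold higher in MWA than SPA, at levels of 2.54, 1.38 and 3.97, whereas Glipr1 was 25.4-fold lower, at levels of 1.26, 1.87 and -2.79, and Glipr2 2.19-fold lower. Crispld1 was well above background in MWA alone.

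Dpp4 encodes dipeptidyl peptidase 4, a surface protease that trims peptide hormones and chemokines. Its 3 probes did not give the same picture. At the bright probe (chr2:62170062-62170121, from base 3276 of NM_010074) the level was -1.06 in SVC and -2.62 in SPA, and -0.46 in MWA. SPA was 2.96-fold below SVC (-1.56 ± 0.21), and MWA was 4.48-fold above SPA (2.16 ± 0.21) and 1.51-fold above SVC (0.60 ± 0.20). With normexp background correction the log2 ratio was 1.50 for MWA over SPA and -1.02 for SPA over SVC. The raw signal of this probe in SPA was 3.80 times the local background.

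The dimmest Dpp4 probe, whose 60 bases span 2067 bases of the genome (chr2:62192636-62194702), gave the same order of SVC and SPA with smaller differences, at levels of -3.99, -4.77 and -4.01. SPA was there 1.71-fold below SVC (-0.78 ± 0.38) and MWA 1.69-fold above SPA (0.76 ± 0.37). The third Dpp4 probe, of the transcript ENSMUST00000151818 (chr2:62245782-62245841), had levels of -2.92, -2.59 and -2.88, and SPA was its highest fraction, 1.26-fold above SVC (0.34 ± 0.23) and 1.22-fold above MWA. If the median of the 3 probes was taken, the log2 ratio of Dpp4 changed sign in both comparisons with SPA, to 0.30 for SPA over SVC and to -0.26 for MWA over SPA. Fap, a close relative of Dpp4 and a marker of activated fibroblasts, had levels of -0.08, -1.14 and 1.65, and was 2.09-fold lower in SPA than SVC and 6.90-fold higher in MWA than SPA. Of the more distant relatives, Dpp9 was 2.0-fold lower in MWA than SPA and Dpp8 differed by less than 2-fold.

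Cd9 encodes a tetraspanin, a membrane protein that gathers integrins and other partners into complexes. It was highest in SPA and lowest in MWA. The level (chr6:125410631-125410690, minus strand) was 3.19 in SVC and 4.05 in SPA, and 1.40 in MWA, so that SPA was 1.81-fold above SVC (0.86 ± 0.20), and MWA was 6.26-fold below SPA (-2.65 ± 0.20) and 3.45-fold below SVC (-1.79 ± 0.20). A second probe that carries the name of Cd9 lies on the opposite strand (chr6:125445268-125445327, plus strand) and was not well above background on any array. When the median of both probes was taken, the log2 ratio of MWA over SPA was -1.32. Of 8 tetraspanins and partners of CD9, none differed by at least 2-fold between SPA and SVC. Cd53, Cd63 and the partner Igsf8 were 3.75-fold, 3.60-fold and 3.60-fold lower in MWA than SPA, and the other 5, Cd81 and Cd151 among them, differed by less than 2-fold.

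**Figure D2:**
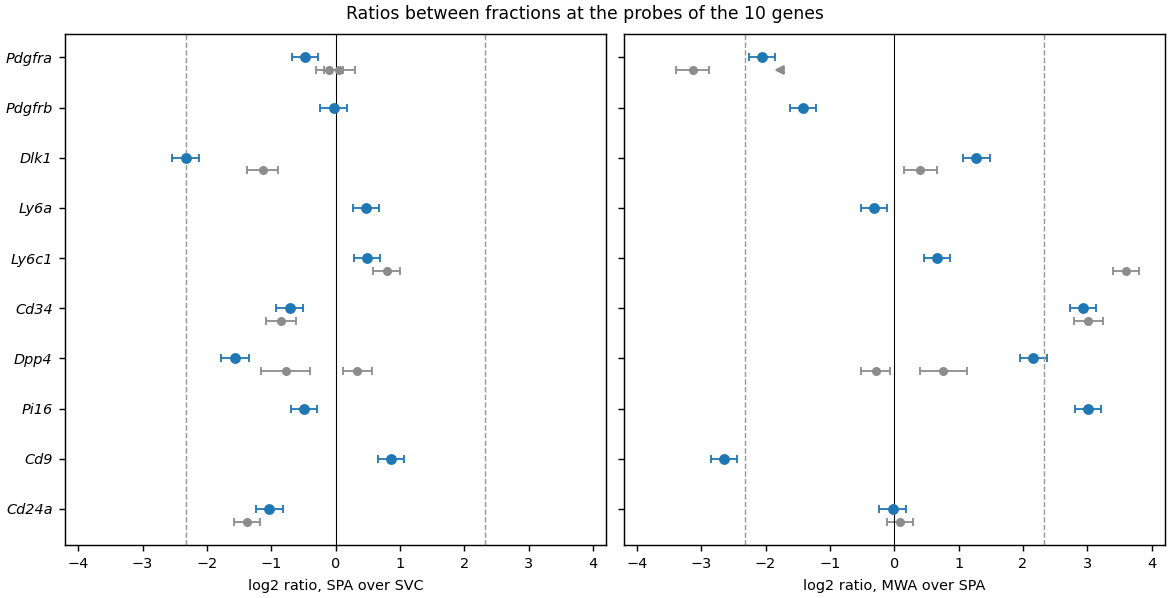
Log2 ratio of SPA over SVC (left) and of MWA over SPA (right) for each probe of the 10 genes that had a ratio. Blue is the brightest probe, grey the others, the triangle is an upper bound for a Pdgfra probe, bars are the error given by the image analysis software, and dashed lines mark 5-fold. Dlk1 lay at -2.33 on the left, and Pi16 at 3.01, Cd34 at 2.94 and Cd9 at -2.65 on the right. Bars of some probes did not overlap for Dpp4, Dlk1 and Pdgfra on both sides, and for Ly6c1 on the right.

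Over all 10 genes, the log2 ratio of SPA over SVC had a median of -0.48, beside 0.05 over the 20822 genes measured on both arrays. The median of the members was -0.06 when the probes of a gene were summarised by their median, and -0.10 over the 9 genes left without spots of outlying local background. In SPA 3 of the 10, namely Dlk1, Dpp4 and Cd24a, lay at least 2-fold below SVC, and none was at least 2-fold higher. Over all genes read in this comparison, 3.24% were at least 2-fold lower and 3.89% at least 2-fold higher. No member was at least 5-fold higher, against 0.32% of all genes.

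Between SPA and MWA the 10 genes went both ways, with a median log2 ratio of 0.32 beside -0.08 over 20777 genes. Dlk1, Cd34, Dpp4 and Pi16 were at least 2-fold higher in MWA, where 15.7% of all genes were, and Pdgfra, Pdgfrb and Cd9 at least 2-fold lower, where 18% were. Cd34 and Pi16 passed 5-fold upwards, against 5.47% of all genes, and Cd9 passed it downwards, against 3.97%. Between SVC and MWA the median was -0.45 beside -0.07 over 20174 genes, and -1.05 over the 9 genes left without spots of outlying local background. Ly6c1, Cd34 and Pi16 were at least 2-fold higher in MWA (17.2% of all genes), and Pdgfra, Pdgfrb, Dlk1, Cd9 and Cd24a at least 2-fold lower (18%). Pi16 was at least 5-fold higher (5.72%) and Pdgfra at least 5-fold lower (3.96%). In Ly6c1 the second probe passed 5-fold in both comparisons with MWA.

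**Figure D3:**
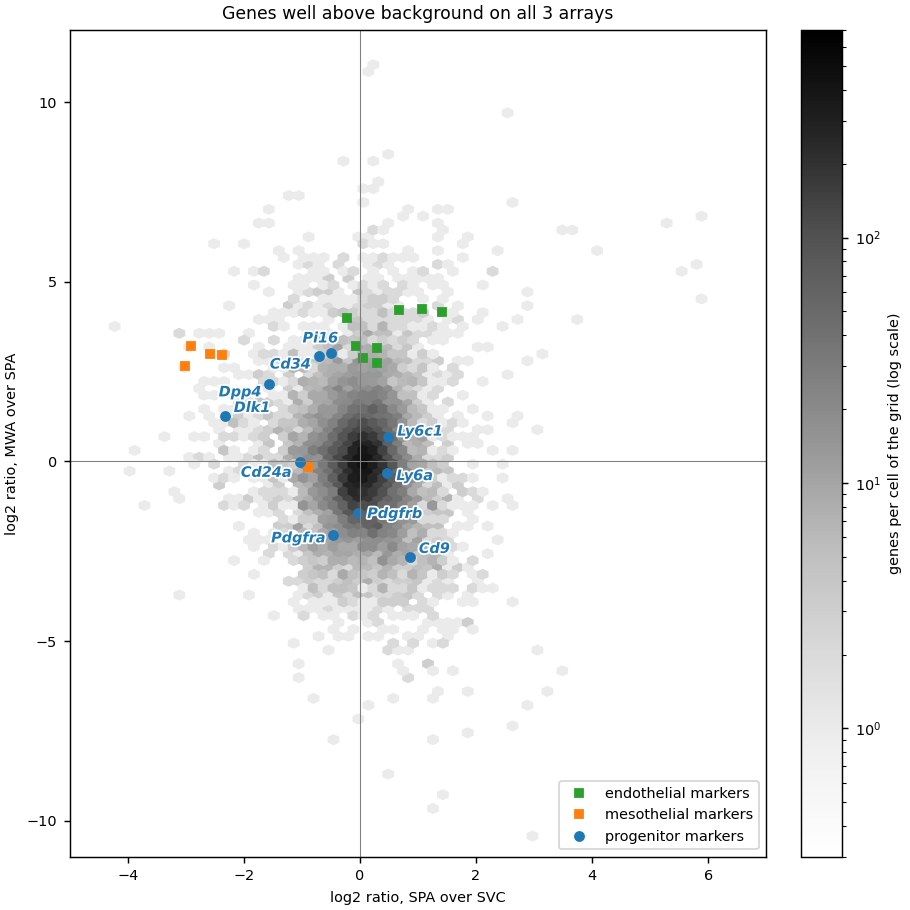
Log2 ratio of SPA over SVC (x axis) against that of MWA over SPA (y axis) for the 19971 genes well above background on all 3 arrays, as gray cells shaded by the number of genes, with the 10 members in blue, 8 endothelial markers in green and 5 mesothelial markers in orange. The SPA array enters both axes. Each gene is shown at its brightest probe. Cd34 and Pi16 lay at 2.94 and 3.01 on the y axis, where the endothelial markers ran from 2.74 to 4.24 and the mesothelial markers from -0.14 to 3.22. Dlk1, Dpp4 and Cd24a lay left of most genes, as did the 5 mesothelial markers.

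Markers of other cell types moved in the same comparisons. The 8 endothelial genes Pecam1, Cdh5, Kdr, Tek, Tie1, Emcn, Erg and Egfl7 lay each at least 5-fold above SPA in MWA (median log2 ratio 3.61), and their levels summed to 5.91 in SVC and 7.12 in SPA, and 71.8 in MWA. Of the members that endothelium also carries, Cd34 was 7.66-fold higher over the same step and Ly6c1 1.59-fold at its bright probe and 12.2-fold at its dim one, while Ly6a was 1.25-fold lower. The part of endothelial RNA in the Cd34 and Ly6c1 values was not tested. Between SVC and SPA the endothelial median was 0.30, whereas Cd34 had a log2 ratio of -0.71.

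Of the 5 mesothelial genes, 4 were lowest in SPA, as were the 5 fibroblast genes and Dlk1, Cd34, Pi16 and the bright and dimmest Dpp4 probes. The share of all genes that were lowest in SPA was not counted. Msln, Upk3b, Krt19 and Lrrn4 were at least 5-fold lower in SPA than SVC and at least 5-fold higher in MWA than SPA, whereas Wt1 was 1.87-fold lower in SPA than SVC and lowest in MWA, at levels of 2.75, 1.85 and 1.70. The summed level of the 5 genes was 19.1 in SVC and 5.63 in SPA, and 19.4 in MWA. In SPA 4 of the 5 fibroblast genes lay at least 2-fold below SVC, Dcn being 1.42-fold lower, and Col3a1, Dcn and Lum lay 7.32-fold, 3.90-fold and 27.2-fold above SPA in MWA. All 10 markers of these lists were well above background on every array, and their part in the values of Dlk1, Dpp4, Cd34 and Pi16 was not tested.

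Blood cell genes also differed. The summed level of the 8 macrophage genes was 550 in SVC and 602 in SPA, and 201 in MWA, mostly from Lyz2 on each array. C1qa and C1qb were 9.12-fold and 5.59-fold lower in SPA than SVC, and Cd68 was 8.58-fold lower in MWA than SPA. Between SPA and MWA the list was mixed, since Cd68 and Lyz2 were lower in MWA and C1qa and C1qb 11.3-fold and 12.3-fold higher, while Csf1r, Cd14, Itgam and Fcgr1 differed by less than 2-fold. Macrophages express Cd9 as well, and their part in its values was not tested. In MWA 5 of the 6 neutrophil and erythroid genes exceeded SPA by at least 5-fold. Their summed level was 1.53, 6.50 and 666 in SVC, SPA and MWA, in MWA mostly from the globins Hba-a1 and Hba-a2. The neutrophil genes disagreed: S100a8 was 5.94-fold higher in SPA than SVC and 2.41-fold lower in MWA than SPA. S100a9, not well above background in SPA, was there at least 6.52-fold below SVC and at least 40.5-fold below MWA. The 7 lymphocyte genes summed to 7.14, 7.61 and 7.62, and Cd79a was not well above background on any array.

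Other surface and secreted markers of adipose progenitors also went both ways. Among 6 genes of the interstitial progenitor, which is the cell known for Dpp4 and Pi16, Cd55 was 4.78-fold higher in MWA than SPA, and Wnt2 and Anxa3 were 3.59-fold and 5.80-fold lower. Sema3c was 2.49-fold higher in SPA than SVC, and Bmp7 and Dact2 differed by less than 2-fold in the comparisons with SPA. Among 5 genes of committed preadipocytes and of cells positive for CD142, 4 exceeded SPA in MWA by at least 2-fold. They were Icam1 at 4.01-fold, Clec11a at 6.21-fold, Gdf10 at 21.2-fold and Fmo2 at least 46.0-fold, Fmo2 not being well above background in SPA. F3, which encodes CD142 itself, was 2.09-fold lower in SPA than SVC and differed 1.11-fold between SPA and MWA.

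The 10 mesenchymal surface antigens had a median log2 ratio near 0 in both steps, at -0.02 and -0.18. Anpep (CD13), Cd44 and Alcam, adhesion and protease antigens of cultured stromal cells, were 9.98-fold, 4.99-fold and 2.28-fold lower in MWA than SPA, and Nt5e (CD73) was 3.57-fold higher. Vcam1 and Nt5e were 2.58-fold and 2.17-fold lower in SPA than SVC, and Anpep was 2.09-fold higher. Thy1, Eng, Itgb1, Mcam and Lepr differed by less than 2-fold in both. Over the 56 genes of all 8 related lists, 3 were at least 2-fold higher and 5 at least 2-fold lower in SPA than SVC, with a median of 0.08 over 53 genes with a ratio. In MWA over SPA 15 were at least 2-fold higher and 12 at least 2-fold lower, with a median of 0.22. Over all genes the shares at least 2-fold higher and lower were 3.89% and 3.24% for SPA over SVC. For MWA over SPA they were 15.7% and 18%.

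**Figure D4:**
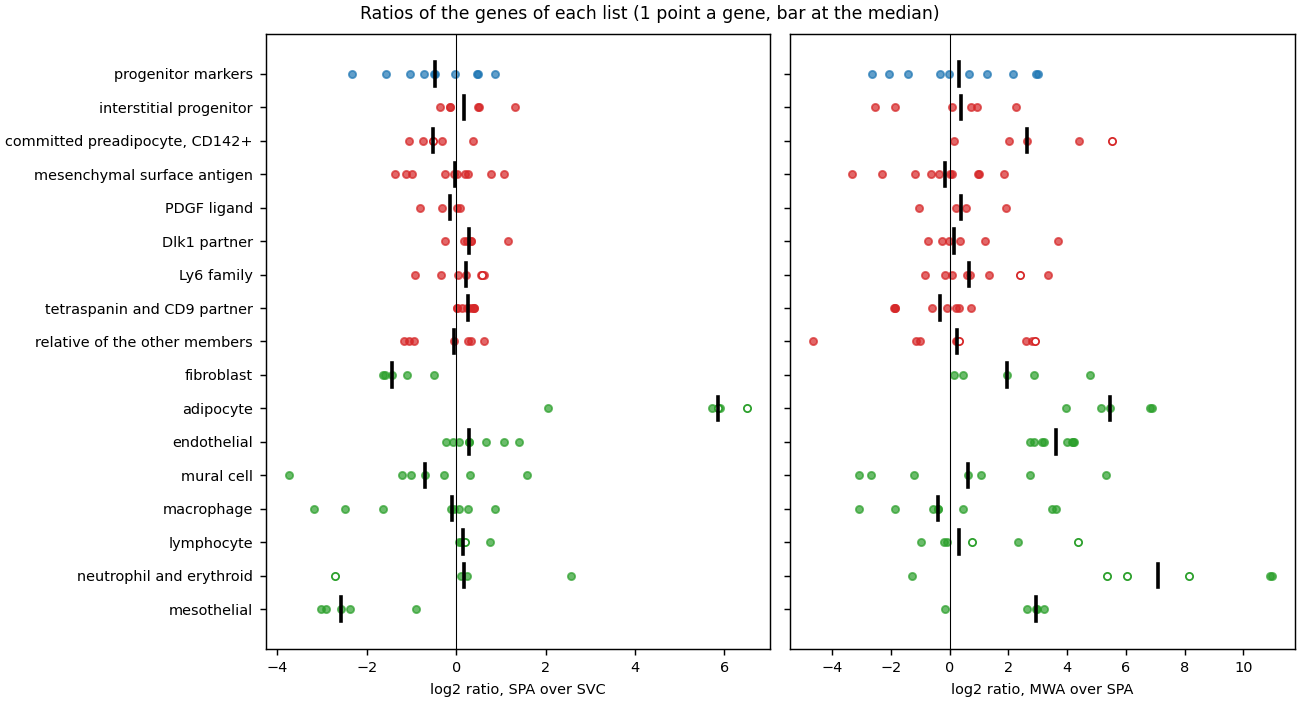
Log2 ratio of SPA over SVC (left) and of MWA over SPA (right) for the genes of each list, with the 10 members in blue, related genes in red and markers of cell types in green. A point is a gene read at its brightest probe, an open circle is a bound because the dimmer array was not well above background, and a bar is the median of the list. The members spread from -2.65 to 3.01 on the right, while the 8 endothelial genes lay between 2.74 and 4.24.

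Genes with the most similar pattern were found for the 3 members with the largest change between SPA and MWA, by the distance between their pairs of log2 ratios (SPA over SVC, MWA over SPA) over the 3 arrays. Nfkbia, Spry4 and Gbp2 were nearest to Pi16, at distances of 0.04 each. Itm2a, St6galnac2 and Capsl were nearest to Cd34, at 0.07, 0.09 and 0.13, and Slc2a1, Laptm5 and Gm16537 nearest to Cd9, at 0.03, 0.03 and 0.04. These distances are smaller than the error of a ratio, and 41 genes lay within 0.25 of Pi16 on both ratios, 28 of Cd34 and 48 of Cd9, of the 19971 genes well above background on all arrays.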

How the data were processed

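Gene expression in SVC, SPA and MWA was measured with 1 Agilent 1-colour array each. The authors deposited the intensity of each spot from Agilent Feature Extraction 10.7.3.1, with the background subtracted and each array detrended, and a ratio of that signal to 1 constant per array. GeneSpring GX and a 5-fold threshold are named in the paper, while the scaling is not given in the sources used here.

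Control and outlier spots were left out, spots of 1 probe averaged, and log2 signals centred on the 75th percentile of the 59305 spots that are not controls (430 in SVC, 439 in SPA and 366 in MWA). Spots well above background were 58.6%, 61.4% and 61.3%, and none was saturated. The median SD of replicate spots was 0.04, 0.04 and 0.05 (log2). The probe that was brightest on average over the arrays stood for a gene. Where a probe was not well above background on the dimmer array, the fold is a lower bound against the lowest signal well above background there, or its own signal if that was higher. Genes counted as at least 2-fold or 5-fold different include such bounds, and median ratios over all genes do not.

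Groups were those of the sample records. No test was possible with 1 array a group. The call at 5-fold was tested on simulated data with larger known changes in brighter genes. No change was planted at 2-fold or in dim probes, so those calls were not covered. The named genes were the 10 members, 56 genes of 8 related lists, 51 markers of 8 cell types, and the nearest 3 genes to the 3 members that changed most in MWA over SPA. Members and lists were chosen with earlier results of these data known. The lists were interstitial progenitor, committed preadipocyte, mesenchymal surface antigen, PDGF ligand, Dlk1 partner, Ly6 family, tetraspanin and CD9 partner, relatives of the other members, fibroblast, adipocyte, endothelial, mural cell, macrophage, lymphocyte, neutrophil and erythroid, and mesothelial. The mm9 positions are those of the array annotation, and exons and untranslated regions were not analysed here. Gene names were taken from a RefSeq reference where it held the accession of a probe, and otherwise from the array annotation. The reference held 32994 probes, of which 1535 received another name, and no member probe was among these. Alternatives were 7 planned settings and 1 added after seeing the data. Software was Python 3.11.15 (numpy 2.4.6, pandas 2.3.3, matplotlib 3.10.9) and, for normexp, limma 3.58.1 in R 4.3.3.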

Additional observations from a re-analysis of the deposited data

How the results depend on the processing

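Other settings changed the background correction (normexp, offset 50), the scaling (quantile normalization, or a percentile taken over the probes that all 3 arrays measured), the values (the deposited ratios), the treatment of dim probes (none left out, or both arrays required) and the choice of probe (the median over a gene). A setting chosen after seeing the data left out spots with outlying local background. On all 3 arrays the processed signal of every spot had a fitted background surface subtracted, not its local background. Of 237 log2 ratios of the 10 genes, 232 kept their direction. The 5 others were Cd24a (2 settings) and Ly6a, all for MWA over SPA and all within 0.05 of 0 after the change, and Dpp4 with the median of its probes, at -0.26 for MWA over SPA and 0.30 for SPA over SVC. The number of genes at least 5-fold lower in SPA than SVC fell from 1 to 0 with normexp and with the median of probes, where the log2 ratio of Dlk1 was -1.59 and -1.73. Under both settings the number at least 2-fold lower in SPA went from 3 to 2 (Cd24a was at -0.91 with normexp, and Dpp4 at 0.30 with the median of probes). The number at least 2-fold higher in MWA than SPA went from 4 to 3 under both settings. With normexp Dlk1 left that set, at 0.79. With the median of probes Dlk1 and Dpp4 left it, at 0.84 and -0.26, and Ly6c1 entered it, at 2.14. For MWA over SVC, the number at least 2-fold lower fell from 5 to 3 under the same 2 settings, and the number at least 5-fold higher went from 1 to 2 with the median of probes and with quantile normalization. Without spots of outlying local background it was 0, and the number at least 5-fold higher in MWA than SPA fell from 2 to 1, because Pi16 had no value left. The median of the 10 genes for MWA over SPA was -0.11 with the median of probes, beside 0.32, and that of the 9 genes left without those spots was -0.03. No paired analysis was possible because each fraction has 1 array. Signal over background limits the dim probes of Dlk1, Dpp4 and Pdgfra, and 1 array a fraction limits the rest.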
